A study of Homo sapiens with 6 samples.

Results

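The genes described here encode the structure that fixes basal epithelial cells to the basement membrane. They are 8 genes, LAMA3, LAMB3, COL17A1, ITGA6, ITGB4, DST, PLEC and COL7A1, taken by name from the 19198 genes listed in the RNA-Seq table. All 8 were listed, and all passed the filter on low values, a mean over the 6 samples of 10 normalized counts or more, that left 16988 genes to be tested. The cells were MCF10A, an established line of non-tumorigenic mammary epithelial cells derived from fibrocystic breast tissue. Controls (3 samples, replicates 1 to 3) grew with insulin at 10 µg/ml, EGF at 20 ng/ml, cholera toxin at 100 ng/ml and hydrocortisone at 0.5 µg/ml. Growth factor-depleted cells (3 samples, replicates 1 to 3) received none of these 4 agents, and both groups received 5% horse serum, so that depletion left the factors of serum in place. The study asked which genes change when these factors are withdrawn, a treatment under which MCF10A cells lose their cobblestone shape. The sample labels list 3 samples per condition, while the design text of the deposit speaks of 2 replicates, and the labels were followed. The time in depleted medium is not given for these samples, and nothing states that replicates came from separate cultures, so p-values measure only the spread between these samples.

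Hemidesmosomes are plaques on the basal face of an epithelial cell that tie keratin filaments to laminin-332 outside the cell. Laminin-332 is a trimer, and LAMA3 and LAMB3 encode its α3 and β3 chains. The integrin α6β4 (ITGA6 and ITGB4) and the transmembrane collagen XVII (COL17A1, also known as BP180) bind it from the cell side. Inside the cell the plakins BP230, an epithelial isoform of dystonin (DST), and plectin (PLEC) link them to keratins, and outside the cell collagen VII (COL7A1) forms the anchoring fibrils under the basement membrane. In the mammary gland these structures are a feature of basal cells, and MCF10A cells are known to secrete laminin-332 onto the culture dish.

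The samples held between 7472418 and 28672630 reads on genes, and a gene of this group had between 140 and 88425 reads in a sample. A normalized count is the number of reads divided by the size factor of the sample, and 3 reads were worth between 1.76 and 6.71 normalized counts. The first principal component of the most variable genes held 81.6% of their variance and separated the conditions. Controls lay between 50.1 and 59.7 on it and depleted samples between -57.5 and -54.2. On the second component, which held 8.1%, depleted replicate 1 lay at 35.3 and depleted replicates 2 and 3 at -19.5 and -16.2. Control replicate 3 stood apart from the other controls by transcript length. The Spearman correlation between its deviation from the mean of all 6 samples and exon length was 0.38 across 13035 genes. It was -0.12 and -0.32 in control replicates 1 and 2. Counts and estimates that moved without control replicate 3, depleted replicate 1 or both are given below with those values. The labels call the cells luminal ductal. The 6 basal markers, with keratin 5 among them, summed to between 42434 and 70288 normalized counts in controls and to between 25969 and 147393 in depleted samples. KRT17 was the largest part of the sum in every depleted sample, at 19236 to 123479.8, against 5882 to 16142 in controls. The largest part in controls was KRT5 (38503) in replicate 1, KRT17 (16142) in replicate 2 and EGFR (19141) in replicate 3. By the limma threshold defined below 2 of the 6 markers, TP63 (log2 fold change -4.18) and EGFR (-2.11), fell and none rose. The 8 luminal markers analysed here summed to between 9115 and 18676 and to between 18425 and 31712, and 1 of the 8, KRT19, fell (-2.31). KRT8 and KRT18 had the highest means of these markers in both conditions, while MUC1 was the highest in control replicate 3 (2689.5 against 2442 for KRT8). ESR1, the estrogen receptor that defines many luminal cells, had between 63.9 and 206 normalized counts in controls and between 4.58 and 32.8 in depleted samples (limma adjusted p = 0.0632). The luminal markers PGR and ELF5 were not analysed here. The 7 fibroblast markers summed to between 225 and 451 normalized counts in controls, where 2 of them stayed at 10 or below in every sample, and to 33375, 14606 and 9949.9 in depleted replicates 1 to 3, and 6 of the 7 rose. The sums of the 4 endothelial markers (167 to 1787 in controls and 265 to 1610.0 in depleted samples) and of the 2 leukocyte markers analysed here (272 to 884 and 86.5 to 656) overlapped. Among them CDH5 (4.10 to 8.77 and 25.6 to 119) rose, and PTPRC (at most 1.97 and at least 10.1, not tested) did not overlap. The part of the fibroblast markers in the differences of the genes below was not tested. In these bulk samples fewer cells of a type and less RNA per cell cannot be told apart.

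Of the 8 genes, LAMA3 alone passed the test for differential expression, and it fell. The threshold was a limma p, adjusted over all genes tested, under 0.05 together with a difference of 2-fold or more. By this rule 6.33% of all genes tested were differentially expressed, 1.97% lower without growth factors and 4.36% higher. The 1 of 8 that passed in either direction is to be read against 6.33%, and the 1 of 8 that fell against 1.97%. The other 7 genes were not past the threshold in either direction. In 3 genes (LAMA3, COL17A1 and ITGA6) every depleted sample lay below every control sample, which held for 12.1% of all genes tested, and in the other 5 the groups overlapped. The unadjusted limma p was under 0.05 for the same 3 genes, and the share of all genes tested under it was not counted. The log2 fold change, always depleted minus control, was negative for 7 genes and positive for COL7A1. Its median over the 8 genes was -0.47, beside -0.03 over all genes tested. The size of the difference varied from gene to gene, as the plot of each sample's values shows.

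**Figure D1:**
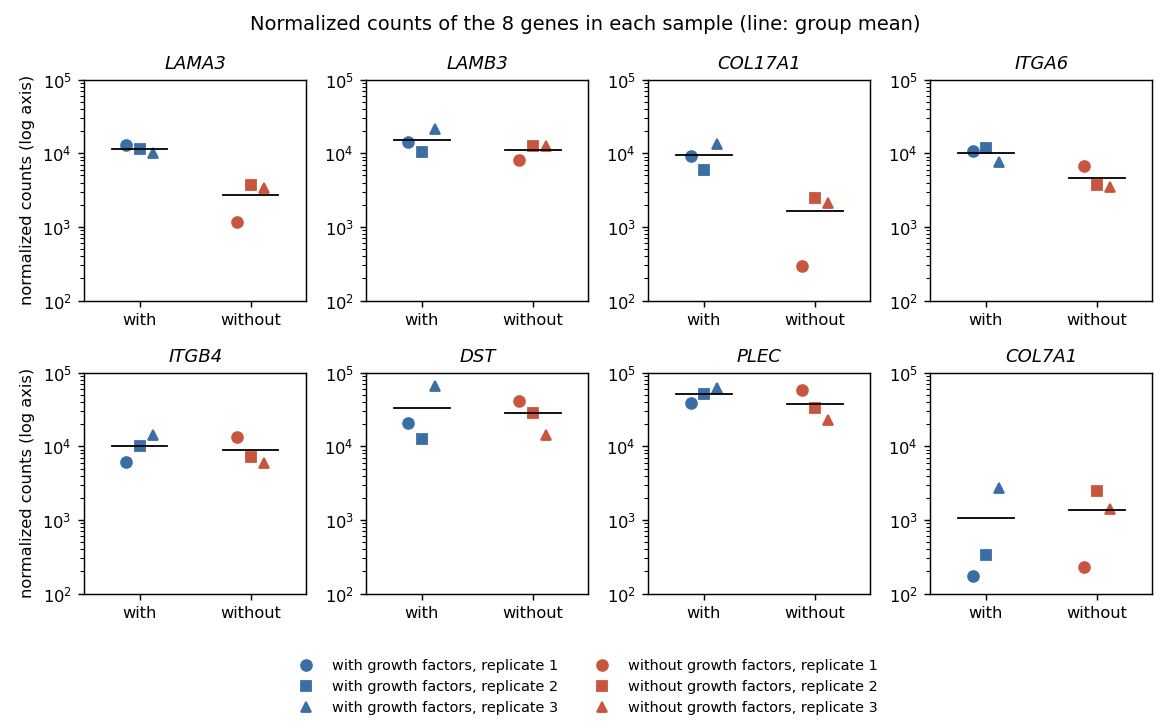
Normalized counts (log axis) of the 8 genes in each of the 6 samples, with growth factors in blue and without in red; the marker shape gives the replicate number and the line is the mean of the 3 samples. The red points lie wholly below the blue ones for LAMA3, COL17A1 and ITGA6, and the points of both groups overlap in the other 5 panels.

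The samples that stood apart lay at the ends of the range for most of these genes. Control replicate 3 was the highest of all 6 samples for 6 of the 8 genes, the exceptions being LAMA3 and ITGA6. Depleted replicate 1 was the lowest depleted sample for LAMA3, LAMB3, COL17A1 and COL7A1 and the highest for ITGA6, ITGB4, DST and PLEC. The spread between replicates, as the SD of log2 values within a condition, ran from 0.45 in LAMB3 and ITGA6 to 1.93 in COL7A1, with a median of 0.64 over the 8 genes against 0.55 over all genes tested. The number of the 8 genes past the threshold was 0 without control replicate 1, without control replicate 2 or without depleted replicate 3. Of all genes, 3.76%, 3.97% and 2.71% passed in these cases. The number was 2 without control replicate 3, where 14.9% of all genes passed, and 2 without depleted replicate 1, where 5.28% did. With both control replicate 3 and depleted replicate 1 left out, 4 of the 8 genes passed, 3 lower and 1 higher, beside 19.5% of all genes.

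**Figure D2:**
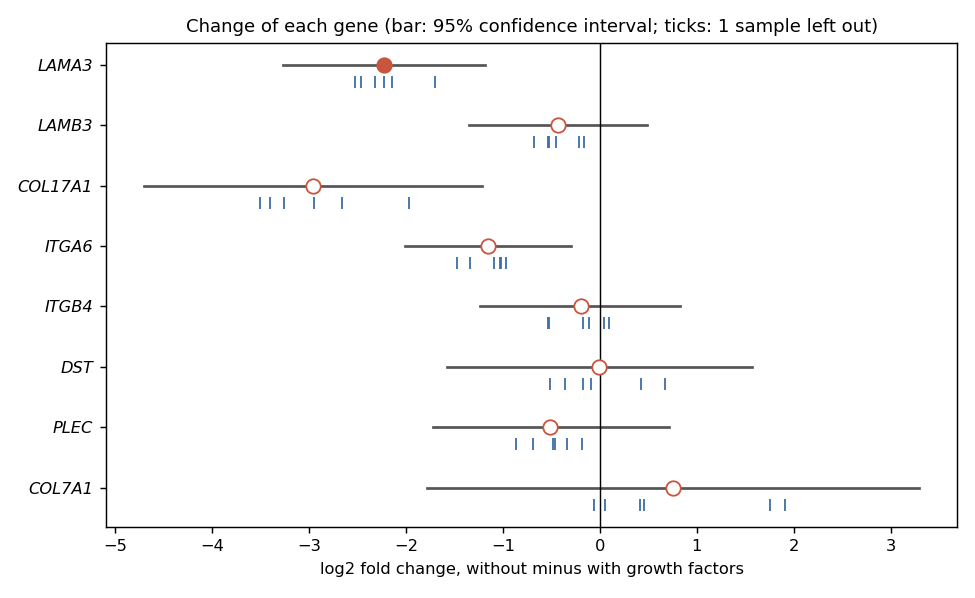
Log2 fold change of each of the 8 genes, without minus with growth factors. The circle is the limma estimate, filled where the gene passed the threshold, the bar its 95% confidence interval, and the blue ticks the estimates with each of the 6 samples left out in turn; the interval of LAMA3 runs from -3.27 to -1.19 and those of LAMB3, ITGB4, DST, PLEC and COL7A1 include 0.

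LAMA3 encodes the α3 chain, the part of laminin-332 that integrins bind. The gene lies at hg38 chr18:23689453-23956222 on the plus strand and has 14.5 kb of exons in Gencode v44. Its 15 annotated transcripts include a long and a short form from different starts, which counts per gene cannot separate. With growth factors LAMA3 had 12818, 11464 and 10122 normalized counts in replicates 1 to 3, and without them 1167, 3659 and 3354. The controls lay within 1.27-fold of each other, while depleted replicate 1 was well below the other depleted samples, and no depleted sample reached a control. The mean fell from 11468 ± 1348 to 2727 ± 1359 (SD, n = 3), to 23.8% of the control mean. The log2 fold change was -2.23 with a standard error of 0.46, a 95% interval from -3.27 to -1.19 and an adjusted p of 0.0247 by limma. LAMA3 was past the threshold in 15 of 19 alternative analyses and negative in all 19, between -2.53 and -1.70. With 1 sample fewer the limma adjusted p was 0.0891 without control replicate 1, 0.0711 without control replicate 2 and 0.0568 without depleted replicate 3. It was 0.0593 after correction for exon length and GC content with a block on replicate number.

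LAMB3, the β3 chain, lies at chr1:209614870-209652425 on the minus strand, with 4.65 kb of exons. It stood at 14363, 10331 and 21213 normalized counts in the controls and at 8139, 12633 and 12488 in the depleted samples. Depleted replicates 2 and 3 were above control replicate 2, so the groups overlapped. The means were 15303 ± 5501 and 11086 ± 2554 (SD, n = 3), and the difference on the log2 scale was -0.43 ± 0.40 (standard error; 95% interval -1.35 to 0.49; adjusted p = 0.627 by limma). The interval reaches from a fall of more than 2-fold to a small rise, so a change of LAMB3 was not detectable here. The estimate was -0.68 without control replicate 2, -0.16 without control replicate 3 and -0.22 without depleted replicate 1. Without control replicate 3 and depleted replicate 1 together it changed sign, to 0.04.

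Within each sample the α3 chain was set against the β3 chain, with no division by length. The ratio of LAMA3 to LAMB3 normalized counts was 0.892, 1.11 and 0.477 with growth factors and 0.143, 0.290 and 0.269 without. All depleted ratios lay below all control ratios. On the log2 scale the mean ratio was -0.36 ± 0.63 in controls and -2.16 ± 0.56 in depleted samples (SD, n = 3), a difference of -1.80. The exact two-sided permutation test gave p = 0.1, the smallest that 3 samples against 3 allow, or 0.3 after adjustment over the 3 ratios tested.

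The sequences upstream of LAMA3 and LAMB3 are shown because these genes encode chains of one trimer. The windows are the 250 bases before an annotated RefSeq start on GRCh38.p14, on the strand of the gene, and capitals mark the AP-1 motif TGAGTCA or its reverse complement TGACTCA. AP-1 is the family of Fos and Jun transcription factors, and its motif is known from promoters of laminin-332 genes. The LAMA3 window (chr18:23872770-23873019, plus strand) lies inside the gene, before a start that RefSeq lists for it, and holds the motif at positions -125 and -69, counted from the start. The LAMB3 window (chr1:209651375-209651624, minus strand), before the last of 3 annotated starts, holds it at -67.
LAMA3: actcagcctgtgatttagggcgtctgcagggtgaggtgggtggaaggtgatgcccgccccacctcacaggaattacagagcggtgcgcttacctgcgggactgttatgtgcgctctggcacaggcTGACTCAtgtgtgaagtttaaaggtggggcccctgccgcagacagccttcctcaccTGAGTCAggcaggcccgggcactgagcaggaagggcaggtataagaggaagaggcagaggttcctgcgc
LAMB3: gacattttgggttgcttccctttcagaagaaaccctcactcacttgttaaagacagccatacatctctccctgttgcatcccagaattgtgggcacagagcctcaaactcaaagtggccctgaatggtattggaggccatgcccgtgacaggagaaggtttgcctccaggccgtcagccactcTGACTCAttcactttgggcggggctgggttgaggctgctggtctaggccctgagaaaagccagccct
The windows of the first and second LAMB3 start, which overlap each other, held no AP-1 motif. Of 35116 RefSeq windows of the same length, 4.20% held it on either strand. RefSeq windows of 6 of the 8 genes were searched here, 11 windows in all, and 2 of these 11 held an AP-1 motif. No window of ITGB4 or PLEC was searched, so the counts do not cover these genes. Whether RefSeq lists starts for them was not examined. The RUNX motif (TGTGGT or ACCACA) was in 1 of the 11, an ITGA6 window, against 11.0% of all windows. The E-box of SNAI and ZEB factors (CAGGTG or CACCTG) was in 3, before LAMA3, LAMB3 and ITGA6, against 17.5%. The E-box of the LAMA3 window shares bases with the AP-1 motif at -69. A match describes these letters only and is no measure of binding.

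COL17A1 had the lowest log2 fold change of the 8 genes and, after COL7A1, the widest spread between replicates. It encodes collagen XVII, which spans the membrane and joins the plaque to laminin-332, and lies at chr10:104031286-104085880 on the minus strand with 6.99 kb of exons. With growth factors it had 9095, 5935 and 13591 normalized counts, and without them 294, 2487 and 2129. Every depleted sample lay below every control, and depleted replicate 1 was at 3.08% of the control mean where depleted replicates 2 and 3 were at 26.1% and 22.3%. The means were 9540.4 ± 3847 and 1636 ± 1176 (SD, n = 3). The log2 fold change was -2.96 with a standard error of 0.76 and a 95% interval from -4.70 to -1.22, and the limma adjusted p of 0.0595 missed the threshold. The replicate SD of 1.28 on the log2 scale was above that of 91.5% of all genes tested. Without depleted replicate 1, the lowest sample, the estimate was smaller, -1.97, but passed at a limma adjusted p of 0.0408. It was -1.67 (limma adjusted p = 0.00932) without control replicate 3 as well. DESeq2 on the recovered reads also placed COL17A1 past the threshold, at -2.54 with an adjusted p of 0.00256, and the estimate was negative in all 19 alternatives.

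The window before the RefSeq start of COL17A1 (chr10:104085881-104086130, minus strand, GRCh38.p14) is shown for comparison with those of the laminin chains. None of the 3 motifs searched occurs in it, so it carries no capitals.
COL17A1: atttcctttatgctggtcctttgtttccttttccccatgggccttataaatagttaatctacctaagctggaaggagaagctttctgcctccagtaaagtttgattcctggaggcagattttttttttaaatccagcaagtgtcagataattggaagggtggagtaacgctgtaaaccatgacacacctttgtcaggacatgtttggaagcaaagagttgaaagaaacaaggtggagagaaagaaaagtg

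ITGA6 and ITGB4 encode the subunits of the laminin receptor α6β4, of which β4 pairs with α6 alone while α6 can also pair with β1. ITGA6 lies at chr2:172427354-172506459 on the plus strand, with 6.68 kb of exons, and antisense RNAs on the other strand share between 0.779% and 2.61% of these bases each. It stood at 10681, 11751 and 7554 normalized counts in the controls and at 6817, 3668 and 3434 in the depleted samples. The depleted samples all lay below the controls, with depleted replicate 1 close to control replicate 3. The means were 9995 ± 2181 and 4640.0 ± 1889 (SD, n = 3), and the difference on the log2 scale was -1.15 ± 0.37 (standard error; 95% interval -2.01 to -0.30; adjusted p = 0.121 by limma). ITGA6 passed the threshold without control replicate 3, at -1.34 with a limma adjusted p of 0.0476. Without depleted replicate 1 in addition it was at -1.66 with a limma adjusted p of 0.00581. With DESeq2 it was at -1.09 with an adjusted p of 0.0489, and all 19 alternatives gave a negative value, the nearest to 0 being -0.97.

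ITGB4, at chr17:75721328-75757818 on the plus strand with 6.76 kb of exons, carries the long cytoplasmic tail that binds plectin. It stood at 6067, 9967 and 14399 normalized counts in the controls and at 13337, 7270.0 and 5894 in the depleted samples. Depleted replicate 1 was thus near the highest control and depleted replicate 3 just under the lowest. The means were 10144 ± 4169 and 8834 ± 3960.0 (SD, n = 3), and the difference on the log2 scale was -0.20 ± 0.45 (standard error; 95% interval -1.24 to 0.83; adjusted p = 0.860 by limma). The sign of this estimate was positive without control replicate 3 (0.09) and without depleted replicate 3 (0.04). The ratio of ITGA6 to ITGB4 was 1.76, 1.18 and 0.525 in controls and 0.511, 0.505 and 0.583 in depleted samples. Control replicate 3 lay within the range of the depleted samples. On the log2 scale the mean ratio was 0.04 ± 0.89 and -0.91 ± 0.11 (SD, n = 3). The difference of -0.95 had an exact permutation p of 0.2, or 0.3 adjusted over the 3 ratios. It was -0.56 without control replicate 1 and -1.44 without control replicate 3, and in the latter case no depleted sample overlapped a control. It was -1.41 without both control replicate 3 and depleted replicate 1.

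**Figure D3:**
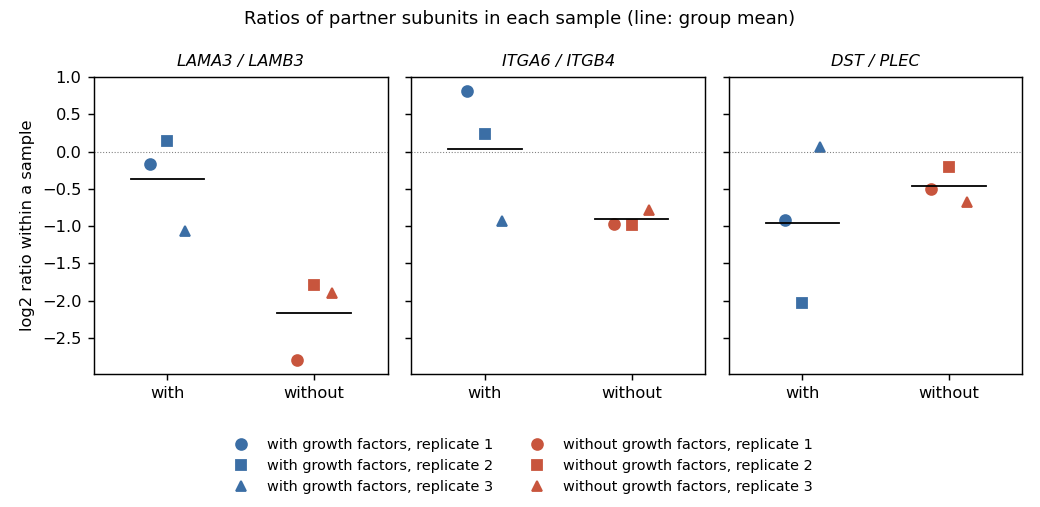
Log2 ratio of normalized counts of partner subunits within each sample, with growth factors in blue and without in red; the marker shape gives the replicate number, the line is the group mean and the dotted line marks equal counts. The depleted points lie wholly below the controls for LAMA3 to LAMB3 alone, where the means are -0.36 and -2.16.

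The plaque genes DST and PLEC are the longest of the group. DST lies at chr6:56457987-56954830 on the minus strand, with 48.1 kb of exons and 41 annotated transcripts. BP230 is 1 of several products of DST, which also makes neuronal and muscle forms, and the counts per gene do not tell them apart. DST stood at 20488, 12702 and 65448 normalized counts in the controls and at 41541, 28723 and 14073 in the depleted samples. The controls spanned 5.15-fold, and control replicate 3 lay above every other sample. The means were 32879 ± 28473 and 28113 ± 13744 (SD, n = 3), and the difference on the log2 scale was -0.01 ± 0.69 (standard error; 95% interval -1.58 to 1.57; adjusted p = 0.998 by limma). The interval allows a change of 2-fold in either direction. Without control replicate 3 the estimate was 0.67 and without depleted replicate 3 it was 0.42. Without control replicate 3 and depleted replicate 1 together it was 0.32. After correction of each sample for exon length and GC content, the replicate SD of DST was 0.67 in place of 1.03, while that of COL17A1 stayed at 1.28.

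PLEC, at chr8:143915153-143976734 on the minus strand with 17.0 kb of exons, encodes plectin, which binds the β4 tail and keratins. It stood at 38814, 51804 and 62746 normalized counts in the controls and at 58697, 33182 and 22599 in the depleted samples. Depleted replicate 1 lay within the range of the controls and the other depleted samples below it. The means were 51121 ± 11980.3 and 38159 ± 18557 (SD, n = 3), and the difference on the log2 scale was -0.51 ± 0.53 (standard error; 95% interval -1.72 to 0.71; adjusted p = 0.673 by limma). PLEC was past the threshold in none of the 19 alternatives, where it ran from -0.87 (without depleted replicate 1) to -0.18 (without depleted replicate 3). The ratio of DST to PLEC was 0.528, 0.245 and 1.04 in controls and 0.708, 0.866 and 0.623 in depleted samples. The depleted ratios lay inside the range of the controls. On the log2 scale the means were -0.96 ± 1.04 and -0.46 ± 0.24 (SD, n = 3), and the difference of 0.50 (exact permutation p = 0.6, adjusted p = 0.6) was -0.03 without control replicate 2 and 1.01 without control replicate 3.

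COL7A1, the collagen of the anchoring fibrils, varied more between replicates than between conditions. It lies at chr3:48564073-48595329 on the minus strand, with 11.1 kb of exons. It stood at 175, 336 and 2704 normalized counts in the controls and at 226, 2436 and 1395 in the depleted samples. Each condition held samples at both ends, with a 15.4-fold span in controls and a 10.8-fold span in depleted samples, and the low values rest on at least 140 reads. The replicate SD of 1.93 on the log2 scale was above that of 98.6% of all genes tested. The means were 1072 ± 1416 and 1352 ± 1105 (SD, n = 3), and the difference on the log2 scale was 0.75 ± 1.11 (standard error; 95% interval -1.78 to 3.29; adjusted p = 0.773 by limma). The estimate was 1.91 without control replicate 3, 1.76 without depleted replicate 1 and -0.06 without control replicate 1. With both control replicate 3 and depleted replicate 1 left out it was 2.92 at a limma adjusted p of 0.00343. Correction for exon length and GC content left the replicate SD at 1.76.

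Levels of different genes were compared after division by exon length, as normalized counts per kb of exons. The summed exons of all transcripts exceed the length of any 1 isoform, so these values understate the level of genes with many isoforms, such as DST. This holds also for LAMA3, whose exon length joins its long and short forms. With growth factors LAMB3 stood at 3293 ± 1184 per kb and PLEC at 3009 ± 705 (SD, n = 3). The values of these neighbours overlapped, while the lowest control of PLEC (2284) lay above the highest of ITGB4 (2129.7). ITGB4 (1500.4 ± 617), ITGA6 (1497 ± 327) and COL17A1 (1365 ± 550.5) followed at levels that overlapped each other. LAMA3 came next at 792 ± 93.1, its highest control (885) above the lowest of COL17A1 (849), and per kb of exons the α3 chain was below the β3 chain in every control. DST (683 ± 591) overlapped LAMA3, and COL7A1 was last at 96.3 ± 127, with no control as high as the lowest of DST (264). Without growth factors LAMB3 and PLEC kept ranks 1 and 2 by their means, at 2386 ± 549.6 and 2246 ± 1092 per kb, again overlapping each other. ITGB4 (1307 ± 586) overlapped both of them and ITGA6 (695 ± 283), and in depleted replicate 1 it lay above LAMB3 (1973 and 1751 per kb). DST took rank 5 by its mean at 584 ± 285, but its range overlapped those of ITGA6 and COL17A1. In depleted replicate 3 DST lay below COL17A1 (292 and 305 per kb). COL17A1 at 234 ± 168 and LAMA3 at 188 ± 93.8 followed by their means, and their ranges overlapped. COL7A1 was again last by its mean, at 121 ± 99.3, and its samples overlapped those of LAMA3 and COL17A1.

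**Figure D4:**
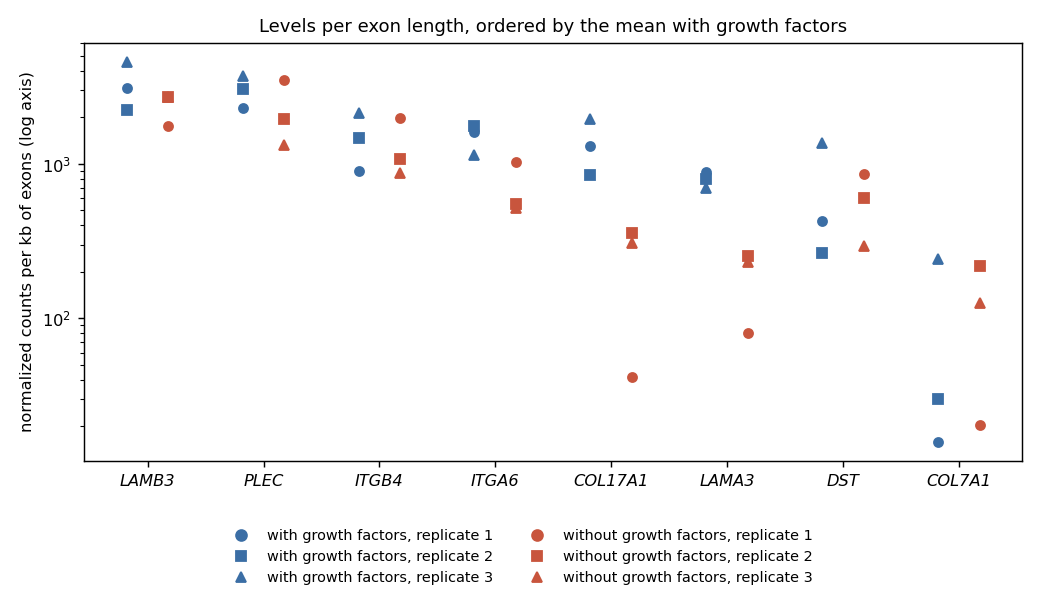
Normalized counts per kb of exons (log axis) of the 8 genes in each sample, ordered by the control mean, with growth factors in blue and without in red; the marker shape gives the replicate number. LAMB3 and PLEC have the highest means in both conditions, and LAMA3 and COL17A1 are the genes whose red points sit farthest below their blue ones.

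The 8 genes fell into patterns across the 6 samples rather than one. LAMA3 and COL17A1 ran closest together, with a Pearson correlation of 0.96 between their log2 values, and LAMB3 followed COL17A1 at 0.82 and LAMA3 at 0.64. ITGB4 followed PLEC at 0.90 and DST at 0.70, and had -0.16 with LAMA3. ITGA6 followed PLEC at 0.68 but its partner ITGB4 at 0.34. COL7A1 had its strongest correlation, -0.66, with ITGA6. These values describe 6 points that share libraries and conditions. The mean of the standardized profiles was 0.04, 0.11 and 1.05 in controls and -0.36, -0.21 and -0.64 in depleted samples, highest in control replicate 3. The genes most like this mean profile among the 11680 whose mean was 100 normalized counts or more were BOD1L1 (r = 0.993 over 6 samples), PDXDC2P-NPIPB14P (0.992), MTERF2 (0.990), EBLN3P (0.989) and CELSR2 (0.988). They were picked as the highest of 11680 correlations over 6 points, so high values come from the choice itself. Their limma adjusted p lay between 0.245 and 0.300, short of the threshold.

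The genes that work with hemidesmosomes were examined in lists. The lists held 54 genes, of which 48 were analysed here and 44 tested, and 5 rose, 3 fell and 36 did not pass by limma. The shares of all genes tested were 4.36% higher and 1.97% lower. The median log2 fold change over the 44 genes was 0.35. The counts of an unadjusted limma p under 0.05 given for the lists below have no share over all genes tested beside them. DESeq2 placed 15 past the threshold, where 12.4% of all genes passed, and edgeR 7, where 5.72% did. The limma count of 8 was 4 without control replicate 1, depleted replicate 2 or depleted replicate 3, 5 without control replicate 2 and 13 without control replicate 3, where 14.9% of all genes passed in place of 6.33%.

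Among the other laminin chains, 0 of 6 tested genes passed by limma, 2 had an unadjusted p under 0.05, edgeR and DESeq2 called 0, and 1 passed by limma without control replicate 3, also with depleted replicate 1 left out as well. LAMB1, the β1 chain of more widely made laminins, stood at 4395, 4158 and 4149 normalized counts in the controls and at 8909, 7801 and 7991 in the depleted samples, with no overlap, for a difference of 0.96 on the log2 scale (limma adjusted p = 0.0820). Among other laminin receptors, 0 of 8 passed by limma, 4 had an unadjusted p under 0.05, DESeq2 called 2 and edgeR 0, and 2 passed by limma without control replicate 3. ITGA3, the α subunit of the laminin receptor α3β1, stood at 5697, 8925 and 7068 normalized counts in the controls and at 19975, 13846 and 14831 in the depleted samples (log2 fold change 1.17, limma adjusted p = 0.0921). All its depleted samples lay above the controls, opposite to ITGA6, and the tetraspanin CD151, a partner of both integrins, showed the same order (1.18, limma adjusted p = 0.144). ITGB1, with which α3 pairs, was at 1.28 (limma adjusted p = 0.206) and its groups overlapped.

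Of the other plakins, 1 of 4 passed, and 2 without control replicate 3. EVPL, the cornified envelope protein envoplakin, stood at 1311, 1777 and 1906 normalized counts in the controls and at 252, 449 and 458 in the depleted samples, and fell by 2.14 on the log2 scale (limma adjusted p = 0.00778). DSP, the desmosomal plakin desmoplakin, had no overlap between the groups either, at -1.63 (limma adjusted p = 0.0933). PPL, the partner of envoplakin, was at 0.22 (limma adjusted p = 0.843). Of the transmembrane collagens related to COL17A1, COL13A1 and COL23A1 had means under the filter and were not tested. Of the proteases that process laminin-332 or shed collagen XVII, 0 of 7 passed by limma, 2 had an unadjusted p under 0.05, and edgeR and DESeq2 called 0. Without both control replicate 3 and depleted replicate 1, 2 of the 7 passed, both higher.

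The list with the most calls was that of the other basement membrane genes, where 5 of 12 tested rose and 1 fell. SPARC, a collagen-binding matrix protein, stood at 7.52, 1.17 and 8.85 normalized counts in the controls and at 265, 167 and 60.4 in the depleted samples (log2 fold change 4.62, limma adjusted p = 0.0120). COL18A1, collagen XVIII, rose from 25.1, 27.5 and 83.6 to 315, 1015 and 619 (3.88, limma adjusted p = 0.00769). FBLN1, the matrix glycoprotein fibulin-1, stood at 1679, 858 and 1271 normalized counts in the controls and at 9175, 7314 and 8707 in the depleted samples (log2 difference 2.77, limma adjusted p = 0.00237). The other genes that rose were FRAS1 at 3.21 (limma adjusted p = 0.0392) and NID2 at 2.57 (limma adjusted p = 0.0378). The gene that fell, COL4A6, encodes a collagen IV chain of epithelial basement membranes and stood at 1427, 1609.9 and 3489 normalized counts in the controls and at 574, 127 and 93.9 in the depleted samples (log2 difference -3.39, limma adjusted p = 0.0212). COL4A1 and COL4A2, the common collagen IV chains, divided the depleted samples. COL4A1 had 1049 normalized counts in depleted replicate 1 but 20669.8 and 18862 in depleted replicates 2 and 3, against 856, 1080.3 and 813 in controls (limma adjusted p = 0.129). The count of 6 in this list was 3 without control replicate 1 or depleted replicate 3 and 2 without depleted replicate 2. It was 9 without both control replicate 3 and depleted replicate 1, where 19.5% of all genes passed. The summed fibroblast markers, at most 451 normalized counts in a control and at least 9949.9 in a depleted sample, were higher in the same condition as the genes that rose. Among the depleted samples this sum was highest in replicate 1 (33375), as were SPARC, FBLN1 and FRAS1, while COL18A1 and NID2 were lowest there. The part of the fibroblast markers in the rise was not tested.

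**Figure D5:**
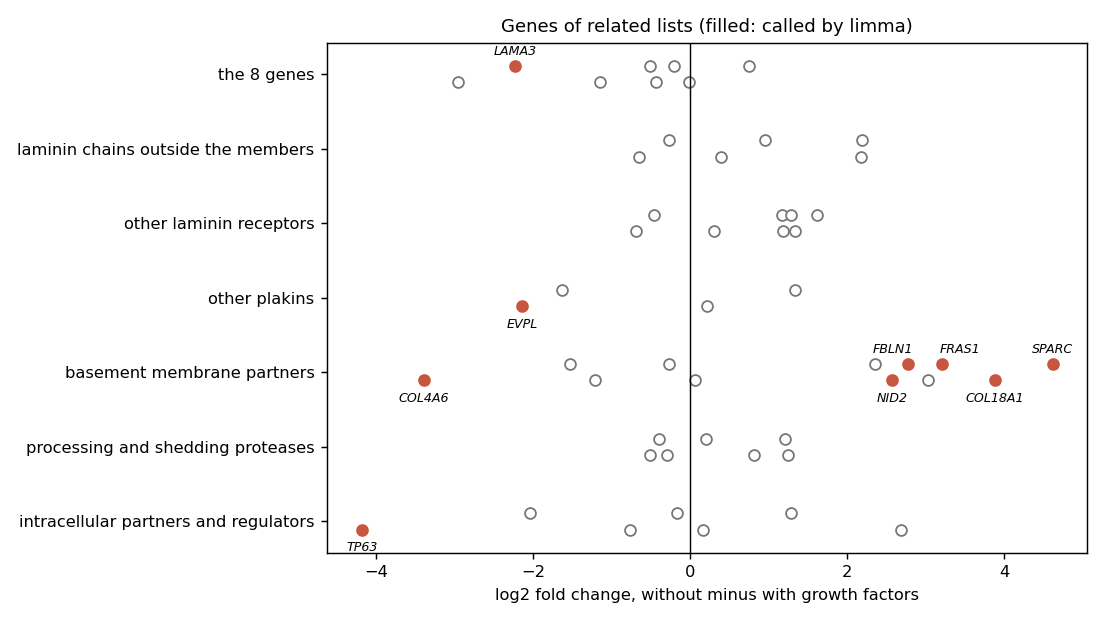
Log2 fold change, without minus with growth factors, of the 8 genes and of the tested genes of each related list; filled and named points passed the limma threshold. Points past the threshold lie on the right for 5 basement membrane genes and on the left for LAMA3, EVPL, COL4A6 and TP63.

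Among the intracellular partners and regulators, 1 of 7 tested genes passed. TP63 encodes p63, a transcription factor of basal epithelial cells known to drive hemidesmosome genes. It stood at 271, 359 and 1615 normalized counts in the controls and at 8.24, 64.9 and 42.5 in the depleted samples, and fell by 4.18 on the log2 scale (limma adjusted p = 0.0270). As with COL17A1, control replicate 3 was the highest and depleted replicate 1 the lowest of all samples. No gene of this list passed without control replicate 1, control replicate 2 or depleted replicate 3, and 2 passed without control replicate 3. KRT5, a keratin that hemidesmosomes anchor in basal cells, stood at 38503, 12739 and 13008 normalized counts in the controls and at 562, 10908 and 14996 in the depleted samples (log2 difference -2.04, limma adjusted p = 0.377). Depleted replicate 1 alone was low for KRT5, the sample in which LAMA3 and COL17A1 were lowest, while depleted replicates 2 and 3 were near control replicates 2 and 3. KRT14, the partner keratin, was at 2.69 (limma adjusted p = 0.184). TLN1, the talin of focal adhesions, stood at 4169.5, 4424 and 5550.2 normalized counts in the controls and at 14957, 9265 and 10905 in the depleted samples, with no overlap, but missed the threshold (1.29, limma adjusted p = 0.0539).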

How the data were processed

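Total RNA of 6 MCF10A samples was depleted of ribosomal RNA and sequenced from strand-specific libraries as single-end reads. Per the labels, the authors trimmed reads with cutadapt 1.6, aligned the reads on hg38 by TopHat2, obtained counts per gene from HTSeq 0.6 and divided these counts by DESeq2 1.8.1 size factors in R 3.2.0. The deposited values are this normalized signal, with no division by length. All values (100.0%, within a tolerance of 0.1 read) were whole multiples of 1 read, so reads were recovered. They carry no molecular identifiers, so the floor of 3 reads covers counting error only. Gencode v44 named 18913 of 19198 genes.

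Here log2(normalized count + 1) of genes with a mean of at least 10 was compared by the linear models of limma 3.58.1 (R 4.3.3, eBayes trend switched on), 3 depleted against 3 control samples (the design text of the deposit speaks of 2 replicates, the labels list 3), with Benjamini-Hochberg adjustment over 16988 genes. A gene was called at an adjusted p under 0.05 and at least 2-fold, on this scale, which understates changes of low genes. Ratios of partner genes were tested with exact two-sided permutation tests, and 1 planned ratio is not reported here. Alternatives were pseudocounts of 0.5 and 10, no filter, a mean of at least 50, rescaled totals, quantile normalization, no trend, a block on replicate number, leaving out each sample, edgeR 4.0.16 and DESeq2 1.42.0 on the recovered reads, correction for exon length and GC content with and without the block, and an adjusted p under 0.1. Leaving out control replicate 3 and depleted replicate 1 together was chosen after seeing the data. The limma, edgeR and DESeq2 steps were run on simulated data, and the outcome is not given here. The genes, lists, motifs and markers were chosen with earlier results of these data known. Genes named are the 8 genes, called list genes, direct partners (CD151, ITGA3, ITGB1, KRT5, KRT14, TP63), and the 5 genes most like the mean profile. DSP, PPL, COL4A1, COL4A2, COL13A1, COL23A1, LAMB1, TLN1 and markers other than KRT5 and TP63 were named after their values were seen. Promoter windows came from RefSeq on GRCh38.p14. Figures were drawn with matplotlib 3.10.9 in Python 3.11.15.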

Additional observations from a re-analysis of the deposited data

How the results depend on the processing

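The count of differentially expressed genes among the 8 was 1, and between 0 and 2 with 1 sample left out. It was 3 with DESeq2, where 12.4% of all genes passed, and 2 at an adjusted p under 0.1, where 10.0% did. After correction for length and GC content with the replicate block it was 0, where 4.12% of all genes passed. Without both control replicate 3 and depleted replicate 1 it was 4, where 19.5% did. Without that pair of samples the genes whose groups do not overlap numbered 5 in place of 3, 4 lower and 1 higher, beside 63.1% of all genes in place of 25.6%. The calls in the related lists, 8 in all, were 15 with DESeq2, 18 without that pair, where 19.5% of all genes passed, and between 4 and 13 with 1 sample left out.

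The estimate changed sign for LAMB3 (0.04) and DST (0.32) without that pair of samples, and for DST with values rescaled to the same total (0.04). With 1 sample left out, ITGB4 ran from -0.54 to 0.09, DST from -0.52 to 0.67, COL7A1 from -0.06 to 1.91 and the log2 ratio of DST to PLEC from -0.03 to 1.01. LAMA3, COL17A1, ITGA6 and PLEC stayed negative in all 19 alternatives.

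With the replicate number as a block, 2 of the 8 genes passed, COL17A1 joining LAMA3 at a limma adjusted p of 0.0162, and 967 of all genes passed in place of 1076. Deviations of same-numbered samples correlated at -0.07, -0.28 and -0.32 across genes, and no sample correlated best with its own number, so the numbers were not taken as pairs.

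Over all genes the count was between 445 and 2483 with 1 sample left out, highest without control replicate 3, and 2112 with DESeq2. Of the calls, 68.9% were higher without growth factors, against 60.8% after the length and GC correction. With 3 samples a group, the intervals of LAMB3, ITGB4, DST, PLEC and COL7A1 allow a change of 2-fold.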
